A study of Mus musculus with 11 samples.

Results

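Histone genes were followed in NSC34 cells depleted of TDP-43, the RNA-binding protein encoded by Tardbp. They were taken as the genes whose single symbol in the platform annotation starts with Hist1 to Hist4, H2af, H3f3 or H1f. This gave 27 genes of the 15803 measured, 18 with replication-dependent symbols (Hist1 to Hist4) and 9 with variant symbols (H2af, H3f3 and H1f). NSC34 is a mouse line made by fusing neuroblastoma with spinal cord cells and used as a motor neuron model, and its RNA was hybridised to 11 Affymetrix whole-transcript arrays. The knockdown cells carried the pSUPERIOR vector with a short hairpin against Tardbp (shTardbp, 4 arrays). The controls carried the same vector with a hairpin against GFP (shGFP, 4 arrays) or against Renilla luciferase (shLuciferase, 3 arrays). All 3 groups were stable lines kept after puromycin selection, so the controls too had been transfected, selected and isolated as clones, and no unmodified parental group was analysed here. Whether the arrays of a group stand for different clones or cultures is not stated in the labels, so the p-values rest on a spread between samples that may be technical.

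Histones wrap DNA into nucleosomes, which hold H2A, H2B, H3 and H4, and the linker histone H1 binds the DNA between them. Replication-dependent histone genes lie in clusters and are expressed mainly in S phase, and their mRNAs end in a stem-loop bound by Slbp in place of a poly(A) tail, although some of these genes also give polyadenylated transcripts. Variant histone genes are mostly expressed outside S phase too, in general from ordinary polyadenylated mRNAs, and their proteins replace the canonical ones at particular places.

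Tardbp itself had gene values, the mean log2 value of a gene's probe sets, of 8.82, 8.80, 9.0 and 8.91 in shTardbp 1 to 4, against 9.25, 9.08, 9.36 and 9.42 in shGFP 1, 2, 3 and 5 and 9.29, 9.38 and 9.20 in shLuciferase 1, 2 and 4. Every shTardbp value lay below every control value, and the fitted log2 change was -0.40 (SE 0.0722, limma adjusted p = 0.000713). The call ended with the letter in the array descriptions (C or P) as a block, at -0.29 (adjusted p = 0.173), and on its brightest probe set alone, at -0.17 (adjusted p = 0.292). P was shared by the 4 shTardbp arrays and shLuciferase 4, C by the other controls, and what the letter stands for is not stated. The block thus takes the effect of the letter from shLuciferase 4 alone, and the SE of the Tardbp change with it was 0.134. Array medians ran from 6.82 to 6.92. Of 16 neuronal and motor neuron markers, 14 lay above the 25th percentile of probe sets on all 11 arrays, but Chat, which makes acetylcholine, and Mnx1, a motor neuron transcription factor, lay below it on all 11. Of the 14, Lhx3 was at only 4.73 to 5.02, close to that percentile (4.46 to 4.57). Summed over the 16 markers, the level was 14.19 to 14.41 in shTardbp and 14.10 to 14.26 in the controls (log2). By limma (adjusted p under 0.05) 1 of the 16 was lower in shTardbp, Elavl4 (-0.53), where 17.0% of all genes were. Another 3 were higher, Syp (0.69), Slc18a3 (0.63) and Isl2 (0.26), where 13.5% of all genes were.

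The replication-dependent genes divided between rises in a set of H2A, H2B, H3 and H1 genes and a fall in 1 linker histone gene, and among the variant genes H2afv fell. In shTardbp against both control groups, 8 of the 18 replication-dependent genes rose, 1 fell and 9 did not pass the test (limma, adjusted p under 0.05 over all genes). Over all genes, 13.5% rose and 17.0% fell, 30.5% in all. Of the 9 variant genes, 0 rose, 1 fell and 8 did not pass. The median log2 change was 0.20 for the replication-dependent genes (range -0.53 to 1.62), -0.02 for the variant genes and 0.0072 for all genes. With the array letter as a block 6 replication-dependent genes rose and 0 fell, where 2509 of all 15803 genes were called. Hist1h1e, Hist2h2be and Hist2h3c2 did not pass there. On the brightest probe set of each gene 6 rose and 1 fell, where 2713 of all genes were called. Hist1h1c, Hist2h2bb and Hist3h2a had -0.26, -0.17 and -0.24 there. In cultures measured in bulk, fewer cells in S phase and less RNA per cell cannot be told apart.

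**Figure D1:**
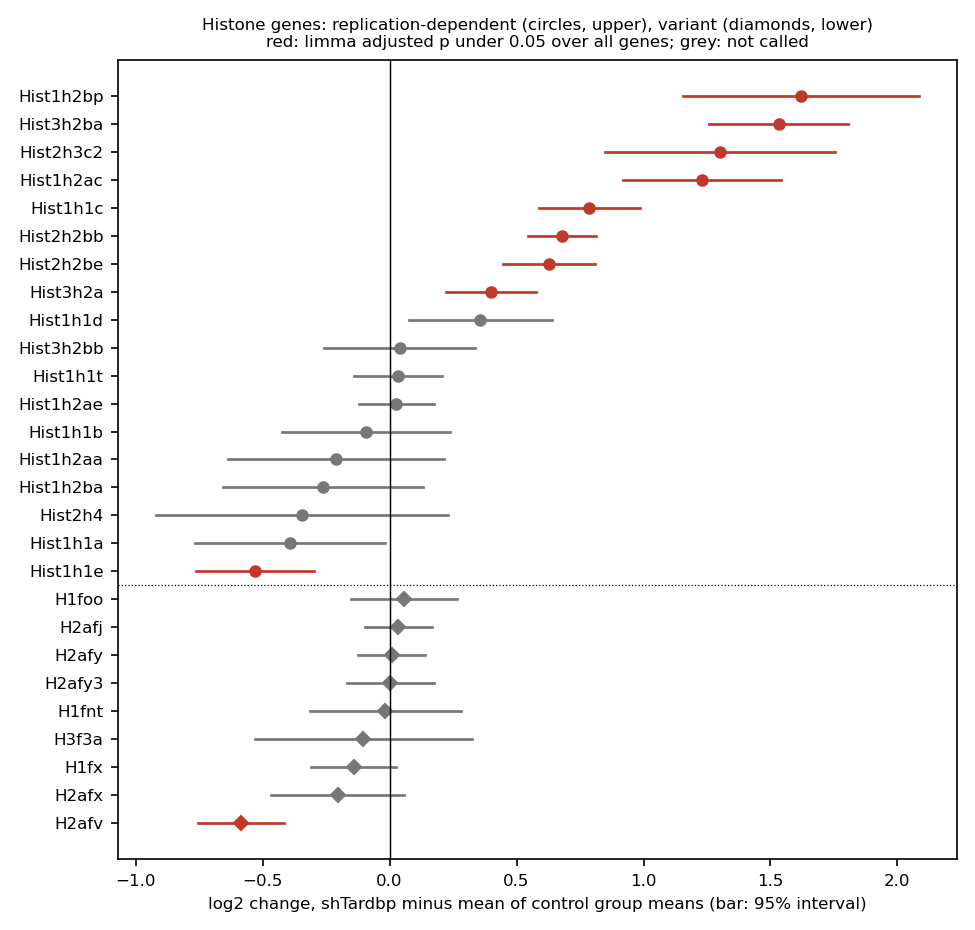
Log2 change of each of the 27 histone genes, shTardbp minus the average of the shGFP and shLuciferase group means, with its 95% confidence interval from limma (circles, 18 replication-dependent genes; diamonds, 9 variant genes; red, adjusted p under 0.05). Of the replication-dependent genes 8 lie to the right of 0 in red and Hist1h1e to the left, and H2afv is the red diamond.

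Set against each control group on its own, 7 replication-dependent genes were higher in shTardbp than in both shGFP and shLuciferase (Hist1h1c, Hist1h2ac, Hist1h2bp, Hist2h2bb, Hist2h2be, Hist2h3c2 and Hist3h2ba), and Hist1h1e was lower than in both. Over all genes, 7.69% were higher and 9.39% lower than in each. These comparisons share the shTardbp arrays. Against shGFP alone 7 replication-dependent genes were higher and 1 lower (12.4% and 15.5% of all genes, 27.9% together), and against shLuciferase alone 9 were higher and 1 lower (11.8% and 14.3%, 26.1% together). In 6 replication-dependent genes the 4 shTardbp values lay above all 7 control values, as in 8.45% of all genes, and in H2afv they lay below all 7, as in 9.82%. The remaining 12 replication-dependent and 8 variant genes overlapped.

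Promoter sequences of 4 of these genes are given because they show motifs of the family in genes that moved in different ways. Each is the 250 bases before the gene's start, from RefSeq on GRCm38.p6, 5′ to 3′ on the strand of the gene. Capitals mark AAACACA, a motif known from H1 gene promoters, CCAAT, the octamer ATTTGCAT bound by Oct1 (Pou2f1), each on either strand, and TATAA in the last 60 bases, with its partly overlapping relative TATATA. Hist1h1c lies at chr13:23738557-23738806 (+) and Hist1h1e at chr13:23622559-23622808 (-), both linker histone genes of the large Hist1 cluster.
Hist1h1c: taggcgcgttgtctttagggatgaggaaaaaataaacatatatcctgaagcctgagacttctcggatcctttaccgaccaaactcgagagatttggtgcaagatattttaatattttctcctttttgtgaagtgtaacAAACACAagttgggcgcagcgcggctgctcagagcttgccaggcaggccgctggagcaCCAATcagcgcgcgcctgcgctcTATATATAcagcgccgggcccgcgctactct
Hist1h1e: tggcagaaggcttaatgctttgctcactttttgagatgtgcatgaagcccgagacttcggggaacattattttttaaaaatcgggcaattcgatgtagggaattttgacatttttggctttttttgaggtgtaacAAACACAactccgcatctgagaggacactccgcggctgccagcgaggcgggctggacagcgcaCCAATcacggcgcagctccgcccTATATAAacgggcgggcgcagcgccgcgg
The H2B genes Hist2h2bb at chr3:96269450-96269699 (+) and Hist3h2ba at chr11:58948661-58948910 (+) belong to the smaller Hist2 and Hist3 clusters.
Hist2h2bb: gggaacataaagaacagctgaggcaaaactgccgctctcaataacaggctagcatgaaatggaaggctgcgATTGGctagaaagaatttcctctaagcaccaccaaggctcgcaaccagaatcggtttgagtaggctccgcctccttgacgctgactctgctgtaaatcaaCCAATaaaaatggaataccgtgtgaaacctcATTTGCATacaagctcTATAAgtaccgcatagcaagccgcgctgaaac
Hist3h2ba: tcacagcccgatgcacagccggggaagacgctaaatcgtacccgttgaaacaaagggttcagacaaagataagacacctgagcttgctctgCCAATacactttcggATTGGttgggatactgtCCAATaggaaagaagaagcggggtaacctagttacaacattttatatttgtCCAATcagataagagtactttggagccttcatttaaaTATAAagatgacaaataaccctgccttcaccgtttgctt

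Hist1h1c and Hist1h1e, with opposite changes, both held the motif AAACACA as well as a CCAAT box, and near the start the letters TATATA. Of the 27 genes 22 had a promoter in the table, 15 replication-dependent and 7 variant. Those of Hist1h2aa and Hist1h2ba overlap almost fully on opposite strands. A motif counted on either strand in their shared part is thus counted for both genes. AAACACA was in 7 of the 15 and 1 of the 7, against 6.25% of all 32851 promoters of the same length. CCAAT was in 14 of the 15 and 4 of the 7, against 33.8% of all. The octamer ATTTGCAT was in 6 of the 15 and 0 of the 7, against 1.60% of all. TATAA in the last 60 bases was in 10 of the 15 and 0 of the 7, against 5.57% of all, and TATATA there was in 6 of the 15 and 0 of the 7, against 1.56%. A match is a description of the letters and no measure of binding.

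Among the linker histone genes, Hist1h1c (H1.2) rose and Hist1h1e (H1.4) fell. Hist1h1c was at 10.74, 10.84, 10.65 and 10.65 in shTardbp 1 to 4, against 9.84, 10.36, 9.89 and 9.97 in shGFP and 9.74, 9.97 and 9.84 in shLuciferase. The shTardbp values lay above all controls, 1.72-fold up (log2 change 0.79, SE 0.0924, limma adjusted p = 2.18e-05). On its brightest probe set alone Hist1h1c had -0.26 (adjusted p = 0.29). Hist1h1e was at 11.03, 11.33, 11.04 and 10.83 in shTardbp, against 11.71, 11.96, 11.59 and 11.52 in shGFP and 11.63, 11.57 and 11.26 in shLuciferase. The groups overlapped in shTardbp 2 and shLuciferase 4, and the change was -0.53 (SE 0.108, limma adjusted p = 0.00172). With the array letter as a block the change of Hist1h1e was -0.25 and the call ended (adjusted p = 0.433), and against shLuciferase 4 alone, which shares the letter P, it was -0.20. On its brightest probe set alone it had -0.16 (adjusted p = 0.267).

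The other linker histone genes of the Hist1 cluster did not pass the test. Hist1h1d (H1.3) was at 7.5 to 7.86 in shTardbp and 7.11 to 8.0 in the controls, a change of 0.36 (adjusted p = 0.0526, 95% interval 0.08 to 0.64), and its highest control was shGFP 2. Hist1h1a (H1.1) had -0.39 (adjusted p = 0.114), with 5.12 to 5.45 in shTardbp and 5.37 to 6.57 in the controls. Hist1h1b (H1.5) had -0.09 (adjusted p = 0.753, interval -0.42 to 0.24). Hist1h1t, the testis H1 form, had 0.03 (interval -0.14 to 0.21).

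Core histone genes of the Hist3 cluster held the rise with the smallest adjusted p. Hist3h2ba, which encodes an H2B, was at 9.08, 9.23, 9.15 and 9.11 in shTardbp, against 8.32, 7.91, 8.62 and 8.37 in shGFP and 6.57, 7.02 and 7.17 in shLuciferase. All 3 groups stood apart on its single probe set, with shLuciferase lowest, and the change was 2.89-fold (log2 1.53, SE 0.127, limma adjusted p = 1.06e-06). It was 0.84 against shGFP (adjusted p = 0.000519) and 2.23 against shLuciferase (adjusted p = 4.18e-07). Hist3h2a, an H2A gene of the same cluster, was at 9.72, 9.78, 9.63 and 9.60 in shTardbp, against 9.31, 9.50, 9.57 and 9.66 in shGFP and 9.06, 9.24 and 8.87 in shLuciferase. It overlapped shGFP, and the change of 0.40 (SE 0.0827, limma adjusted p = 0.00196) was 0.17 against shGFP (adjusted p = 0.21) and 0.63 against shLuciferase (adjusted p = 0.000361). With the array letter as a block it was 0.63 (adjusted p = 0.00988), but on the brightest probe set alone its sign turned, to -0.24 (limma adjusted p = 0.0493). Hist3h2bb, a transcribed pseudogene in RefSeq, had 0.04 (interval -0.26 to 0.34).

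The Hist2 cluster, near Sv2a and Txnip in the gene table, gave 3 rises. Hist2h2bb, an H2B gene, was at 7.53, 7.45, 7.61 and 7.70 in shTardbp, against 6.88, 6.94, 6.84 and 6.95 in shGFP and 6.91, 6.94 and 6.80 in shLuciferase. The 7 controls lay close together and below all shTardbp values, a rise of 1.60-fold (log2 0.68, SE 0.0618, limma adjusted p = 2.5e-06). On its brightest probe set alone Hist2h2bb had -0.17 (adjusted p = 0.487). Hist2h2be, an H2B form known from mouse olfactory neurons, was at 6.91, 7.36, 7.01 and 6.98 in shTardbp, against 6.51, 6.5, 6.58 and 6.58 in shGFP and 6.26, 6.26 and 6.5 in shLuciferase. The groups did not overlap, at 0.63 (SE 0.0843, limma adjusted p = 6.55e-05), and with the array letter as a block the call ended (0.43, adjusted p = 0.0753).

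Hist2h3c2, an H3 gene, was at 9.61, 9.87, 9.20 and 9.10 in shTardbp, against 8.89, 8.20, 8.36 and 8.66 in shGFP and 7.15, 7.76 and 8.39 in shLuciferase. The groups did not overlap on its single probe set, and the rise was 2.47-fold (log2 1.3, SE 0.211, limma adjusted p = 0.000304). With the array letter as a block it was 0.52 and did not pass (adjusted p = 0.33). Hist2h4, an H4 gene, had -0.34 (adjusted p = 0.411), with 8.13 to 9.10 in shTardbp and 8.42 to 9.87 in the controls.

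Core histone genes of the Hist1 cluster with a rise were Hist1h2bp (H2B) and Hist1h2ac (H2A), each measured by 1 probe set. Hist1h2bp was at 6.03, 7.0, 6.07 and 6.67 in shTardbp, against 5.20, 4.93, 5.47 and 6.12 in shGFP and 4.41, 4.18 and 4.06 in shLuciferase. Of the controls only shGFP 5 reached the shTardbp range, and the change was 3.07-fold (log2 1.62, SE 0.216, limma adjusted p = 6.19e-05). Hist1h2ac was at 5.08, 5.73, 5.53 and 6.02 in shTardbp, against 4.55, 4.62, 4.82 and 4.93 in shGFP and 4.15, 3.80 and 4.04 in shLuciferase. Its groups did not overlap, at 2.35-fold (log2 1.23, SE 0.144, limma adjusted p = 2.08e-05). For both genes the 3 shLuciferase values lay below the array's 25th percentile of probe sets (4.46 to 4.57), so the size of the difference from shLuciferase is uncertain.

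Hist1h2aa and Hist1h2ba, the testis H2A and H2B forms, had -0.21 (adjusted p = 0.514) and -0.26 (adjusted p = 0.35). Hist1h2ae, another H2A gene, lay below the 25th percentile on every array, at 3.00 to 3.12 in shTardbp and 2.95 to 3.21 in the controls.

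**Figure D2:**
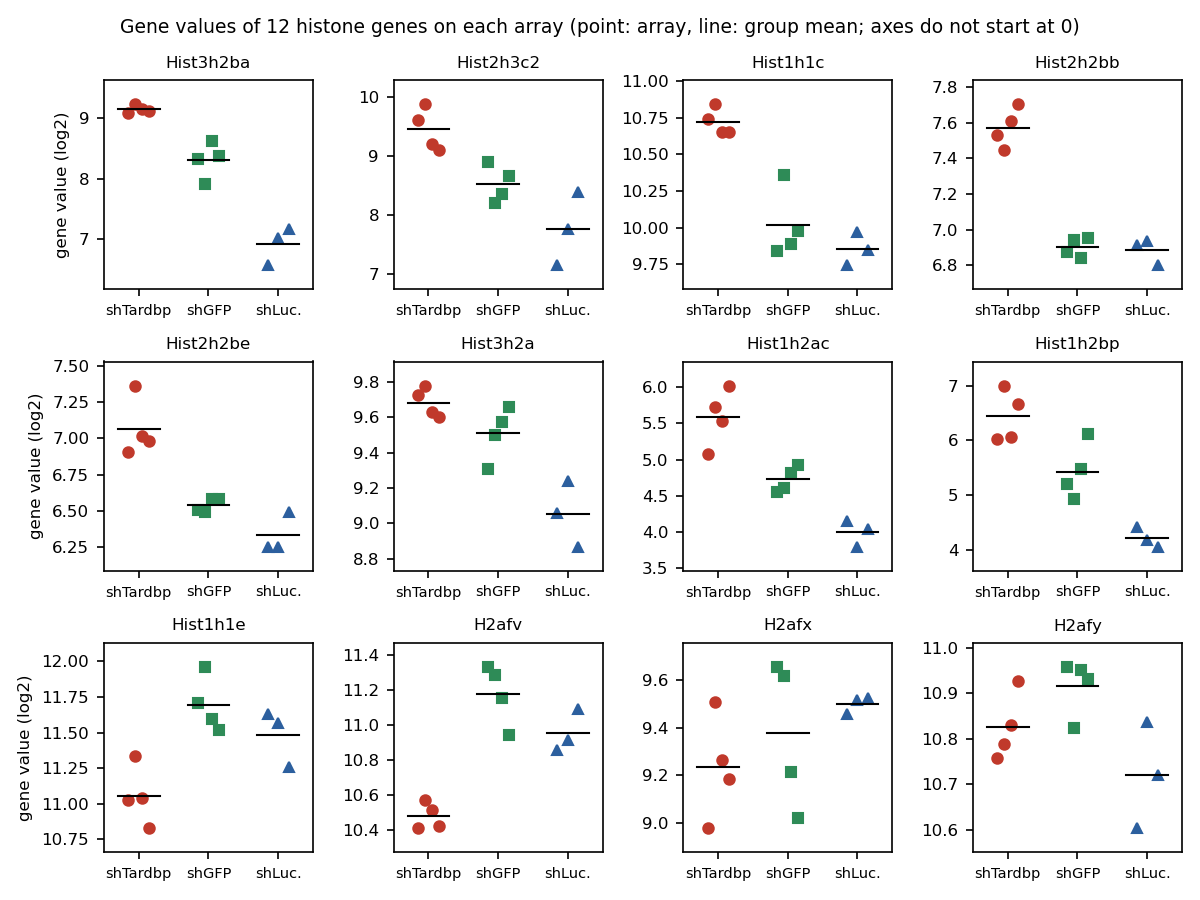
Gene values (mean log2 of a gene's probe sets) of 12 histone genes on each array, with groups from left to right shTardbp, shGFP and shLuciferase (points, arrays; bars, group means). Hist3h2ba stands at 9.08 to 9.23 in shTardbp against 6.57 to 8.62 in the controls, Hist1h1e and H2afv lie lower in shTardbp, and H2afy at 10.76 to 10.93 lies within the range of the controls.

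Part of these genes also differed between the controls. In shGFP against shLuciferase, 4 of the 18 replication-dependent genes were higher and 0 lower, where 6.26% of all genes were higher and 4.82% lower (11.1% in all). Hist3h2ba differed by 1.39 (2.61-fold, limma adjusted p = 5.99e-05), Hist1h2bp by 1.22 (adjusted p = 0.00824), Hist1h2ac by 0.73 (adjusted p = 0.0148) and Hist3h2a by 0.45 (adjusted p = 0.00943). In each of them shTardbp was highest and shLuciferase lowest by group mean. By contrast the control groups of Hist2h2bb differed by 0.02 (adjusted p = 0.945) and those of Hist1h1c by 0.16 (adjusted p = 0.471). None of the 9 variant genes passed between the controls by limma.

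Of the variants, H2afv, which encodes the H2A.Z form H2A.Z.2, was the only one to pass the test. It was at 10.41, 10.57, 10.51 and 10.43 in shTardbp, against 11.33, 11.29, 11.16 and 10.94 in shGFP and 10.86, 10.91 and 11.09 in shLuciferase. All shTardbp values lay below all controls, and the change was -0.59 (SE 0.0789, limma adjusted p = 6.74e-05, 95% interval -0.76 to -0.42). Its 3 probe sets fell alike, by 0.53 to 0.62 on the log2 scale, and the fall remained with the array letter as a block (-0.75, adjusted p = 0.00421).

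The remaining variants gave small differences. H2afx, whose phosphorylated protein marks DNA breaks, was at 8.98 to 9.51 in shTardbp and 9.02 to 9.65 in the controls, -0.20 (95% interval -0.47 to 0.06). H2afy, the gene of macroH2A1, had 0.01 (interval -0.13 to 0.14), and H2afy3, a transcribed pseudogene in RefSeq, had 0.00 (interval -0.17 to 0.17). H1fx, a replication-independent linker histone gene, had -0.14 (interval -0.31 to 0.03). H3f3a, 1 of the genes of the replacement histone H3.3, had -0.10 on its single probe set (interval -0.53 to 0.32), and H2afj, the gene of H2A.J, had 0.03 (interval -0.10 to 0.17). The germ cell linker histone genes H1fnt (testis) and H1foo (oocyte) had -0.02 (interval -0.31 to 0.28) and 0.05 (interval -0.15 to 0.26).

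The probe sets of a replication-dependent gene often differed among themselves. Their calls here come from the fit to all 194293 probe sets, not from the fit to the brightest probe set of each gene. Of the 9 such genes with more than 1 probe set, the probe set with the highest mean signal had a negative difference in 6, with 0 called lower and 2 called higher, and a median of -0.17. The other 20 probe sets had a median of 0.32, with 6 called higher and 2 lower. Over all probe sets of the array, 7.31% were called higher and 8.12% lower (15.4% in all). Positions of the probe sets within the transcripts were not used here, so none is assigned to a coding part, a stem-loop or a region beyond it.

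Hist1h1c had 2 probe sets that moved apart. Its probe set of highest signal was at 10.72, 11.08, 10.91 and 10.74 in shTardbp, against 10.94, 11.64, 10.80 and 11.08 in shGFP and 11.08, 11.26 and 11.04 in shLuciferase, overlapping groups with a difference of -0.26 (limma adjusted p = 0.303). Its other probe set was at 10.76, 10.61, 10.39 and 10.56 in shTardbp, against 8.74, 9.08, 8.98 and 8.87 in shGFP and 8.41, 8.68 and 8.65 in shLuciferase. The groups were far apart there, with a difference of 1.83 (SE 0.104, limma adjusted p = 1.48e-06). The rise of the Hist1h1c gene value thus came from 1 of its 2 probe sets.

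Hist2h2bb showed the same split over 7 probe sets. That of highest signal was at 11.45, 11.67, 11.49 and 11.47 in shTardbp, against 11.41, 12.11, 11.37 and 11.42 in shGFP and 11.70, 11.87 and 11.81 in shLuciferase, -0.17 (limma adjusted p = 0.503). That with the largest difference was at 7.05, 6.74, 7.26 and 7.24 in shTardbp, against 4.95, 5.24, 5.13 and 5.26 in shGFP and 5.07, 4.94 and 4.92 in shLuciferase. It was 2.01 higher without overlap (SE 0.116, limma adjusted p = 1.64e-06), and 2 more probe sets rose, by 1.25 (adjusted p = 0.000184) and 0.50 (adjusted p = 0.0241).

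**Figure D3:**
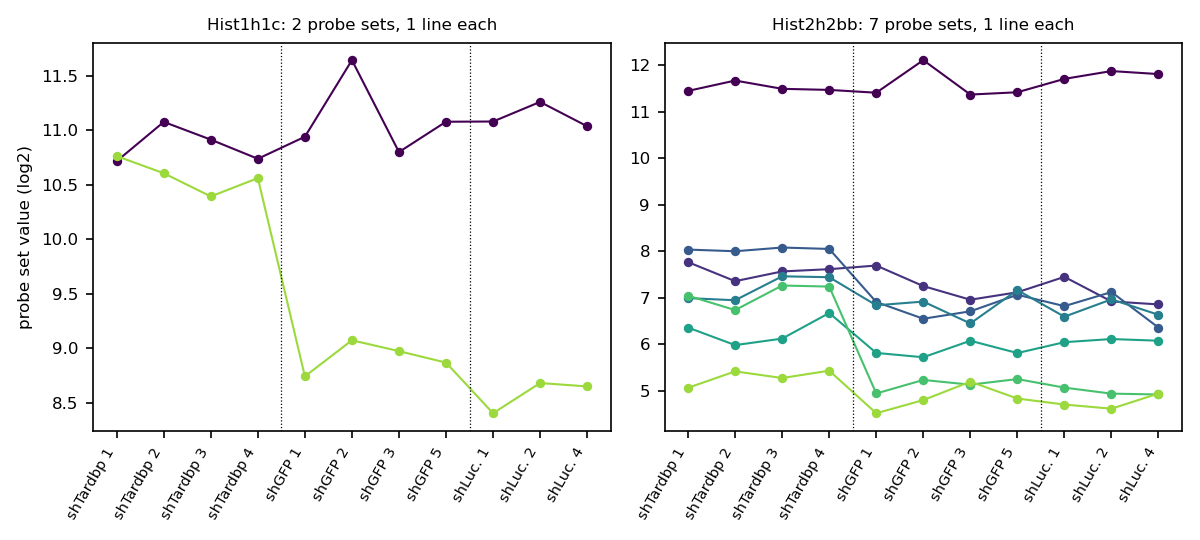
Log2 values of the 2 probe sets of Hist1h1c and the 7 of Hist2h2bb on each array (lines, probe sets; arrays from left to right shTardbp, shGFP, shLuciferase). In each gene the probe set of highest signal has overlapping groups, and another (10.39 to 10.76 in shTardbp against 8.41 to 9.08 in the controls for Hist1h1c) is higher in all 4 shTardbp arrays.

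In other genes with several probe sets the probe set of highest signal could stand on either side. In Hist3h2a the probe set of highest signal had -0.24 (adjusted p = 0.0851). In the fit to the brightest probe set of each gene its limma adjusted p was 0.0493. The other 2 probe sets of Hist3h2a had 0.85 (adjusted p = 0.00235) and 0.59 (adjusted p = 0.0325). In Hist1h1e the probe set of highest signal had -0.16 (adjusted p = 0.326), and the other 2 fell by 0.73 (adjusted p = 0.0119) and 0.70 (adjusted p = 0.0046). In Hist2h2be it was the probe set of highest signal that rose, with 9.21 to 9.73 in shTardbp and 7.44 to 8.36 in the controls (1.5, SE 0.13, limma adjusted p = 3.22e-05). In Hist1h1d the probe set of highest signal rose too (0.92, adjusted p = 0.00107), while the other had -0.20 (adjusted p = 0.576).

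**Figure D4:**
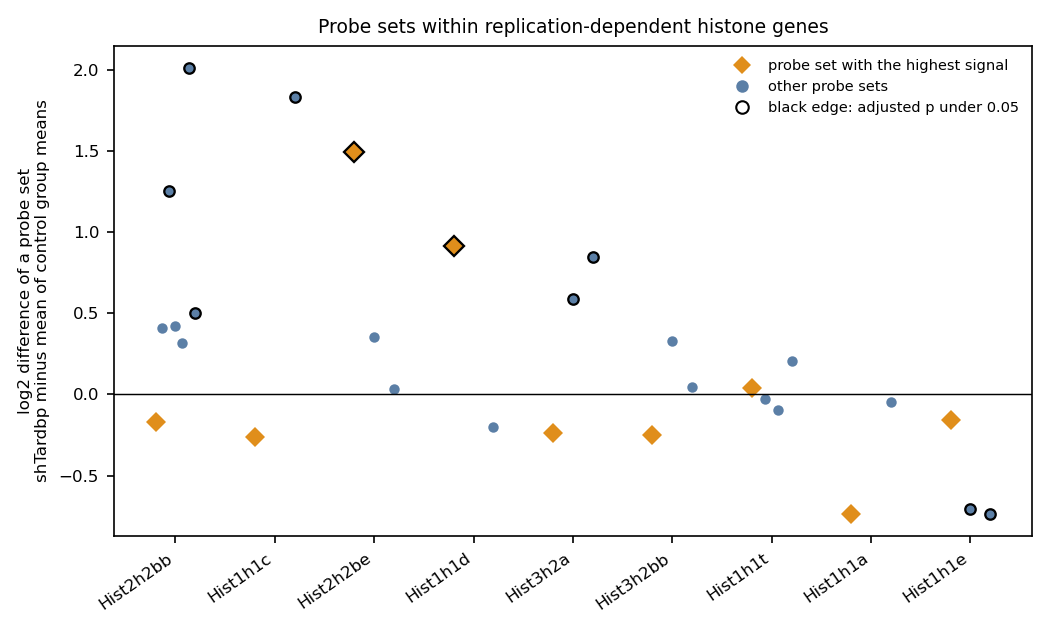
Log2 difference, shTardbp minus the average of shGFP and shLuciferase, of every probe set in the 9 replication-dependent genes with more than 1 (diamonds, the probe set of highest signal in its gene; black edges, limma adjusted p under 0.05). The diamonds of Hist1h1c (-0.26), Hist2h2bb (-0.17) and Hist3h2a (-0.24) lie below 0 while other probe sets of these genes lie above it.

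How a probe set moved against the others of its gene was tested in genes with at least 3 probe sets above the level limits, which left 6 histone genes and 30 of their probe sets. Of these 4 were called, where 0.875% of the 101753 probe sets tested were called. They were the probe set of highest signal in Hist2h2bb (-0.99) and another of that gene (1.55), that of highest signal in Hist3h2a (-0.95) and that of highest signal in Hist1h1e (0.56, limma adjusted p = 0.042). None of the 10 probe sets of H2afy, whose gene is known for alternative splicing, was called (lowest limma adjusted p = 0.193), nor any of H2afv and H1fx. Only 1 of the 4 calls was left with the array letter as a block.

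Copies of a replication-dependent histone gene are near identical in their coding sequence, so signal from 1 copy may reach the probe sets of another, and values by gene are uncertain to that extent. A further 26 probe sets carry several histone symbols and stand for groups of copies. Over all probe sets 7.31% were called higher and 8.12% lower. Of 7 probe sets for Hist1h2bb, Hist1h2bc, Hist1h2be and Hist1h2bg together, 5 were higher in shTardbp, by 0.86 to 1.68, and 1 was lower, by -0.81 (limma adjusted p = 0.0251). Of 2 that combine Hist1h1e with these H2B copies, 1 was higher (1.04, limma adjusted p = 0.000214). Of 6 for groups of H3 genes, 1 was higher, with means of 9.08 in shTardbp, 7.96 in shGFP and 6.38 in shLuciferase (1.91, SE 0.174, limma adjusted p = 4.19e-05). Of 5 for a group of H4 genes, 1 was higher (1.00, limma adjusted p = 0.000437), and the probe set with means of 12.58 in shTardbp, 12.82 in shGFP and 12.78 in shLuciferase had -0.22 (adjusted p = 0.102). None of 3 for H2A copies and none of 3 shared by H3f3a and H3f3b, the genes of H3.3, passed, and the last 3 had 0.05, 0.07 and 0.53 (limma adjusted p = 0.771, 0.712 and 0.0707).

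Genes that work with histones were counted from lists chosen with earlier results in view, and each count is to be read beside the 17.0% of all genes called lower and 13.5% called higher. S phase and replication genes fell together, with 29 of 35 measured lower and 0 higher in shTardbp, a median of -0.54 beside 0.0072 for all genes. Mcm10, a replication initiation factor, fell by 1.07 (limma adjusted p = 1.61e-08), Ccne1, the cyclin of S phase entry, by 0.97 (adjusted p = 1.51e-06), Cdc45l, of the replicative helicase, by 0.82 (adjusted p = 2.27e-07) and Tyms, which makes thymidylate, by 0.77 (adjusted p = 8.07e-07). The median level of the list was 9.34, 9.44, 9.34 and 9.40 in shTardbp, against 9.61, 9.82, 9.61 and 9.66 in shGFP and 9.76, 9.96 and 9.95 in shLuciferase. It was lower on the 4 shTardbp arrays than on all 7 controls, while 8 replication-dependent genes were called higher in shTardbp and 1 lower. Of the 8, Hist1h1c, Hist2h2bb and Hist3h2a had -0.26, -0.17 and -0.24 on the brightest probe set alone. In that fit 6 replication-dependent genes were called higher and 1 lower, where 2713 of all 15803 genes were called. The part of the S phase list in the histone values was not tested.

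Histone chaperones and deposition factors gave 12 lower and 2 higher of 29 measured (17.0% and 13.5% over all genes), with a median of -0.07. Cenpa, the H3 variant of centromeres, fell by 0.86 (limma adjusted p = 3.04e-05), and 2610039C10Rik (now Mis18a), which licenses its loading, fell by 0.75 (adjusted p = 2.67e-06). Nasp, a chaperone of H3 and H1, fell by 0.74 (adjusted p = 2.76e-05), Chaf1b, of the replication-coupled assembly factor CAF-1, by 0.70 (adjusted p = 1.65e-05) and Asf1b, an H3-H4 chaperone, by 0.52 (adjusted p = 4.95e-06). Chaf1a, the large CAF-1 subunit, fell by 0.33 (adjusted p = 0.0108), but with the array letter as a block it had 0.04 (adjusted p = 0.87). Nap1l5, of the family of H2A-H2B chaperones, rose by 0.77 (adjusted p = 6.49e-06) and was also 0.87 higher in shGFP than in shLuciferase (adjusted p = 5.58e-05).

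Of the factors for transcription and processing of histone mRNA, 7 were lower and 1 higher of 19 measured (17.0% and 13.5% over all genes), with a median of -0.15. Casp8ap2 (FLASH), needed for 3′ end processing of histone mRNA, fell by 0.71 (limma adjusted p = 8.8e-05), but on its brightest probe set alone it had -0.35 (adjusted p = 0.117). Cstf2, Pou2f1 and Sympk had -0.28, -0.26 and -0.34 (adjusted p = 0.00131, 0.00191 and 0.00531). With the array letter as a block they had -0.25, -0.23 and -0.09, and none of these 3 calls was left (adjusted p = 0.127, 0.143 and 0.696). Slbp, the stem-loop binding protein, had -0.12 on its single probe set, with 7.37, 7.80, 8.66 and 8.57 in shTardbp, against 8.92, 8.96, 8.04 and 8.45 in shGFP and 7.88, 7.90 and 7.77 in shLuciferase (adjusted p = 0.79). Npat and Hmgb2 were not analysed here.

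Among enzymes that modify histones, 4 of 14 were lower and 2 higher, the higher ones at about the 13.5% of all genes (17.0% lower). Ezh2, which methylates H3, fell by 0.28 (limma adjusted p = 0.001), with -0.18 on its brightest probe set (adjusted p = 0.0895). Myst2, an acetyltransferase, had -0.41 (adjusted p = 0.000129), Suv420h1, which methylates H4, 0.49 (adjusted p = 0.00228), and Myst1, an H4 acetyltransferase, 0.38 (adjusted p = 0.00255). With the array letter as a block the last 3 had -0.33, 0.21 and 0.37, and their calls ended (adjusted p = 0.0622, 0.483 and 0.139). Of 9 architectural chromatin proteins, 4 were lower and 0 higher (17.0% and 13.5% over all genes). Hmga2 fell by 0.57 (limma adjusted p = 7.71e-06) and Nsbp1 (Hmgn5) by 0.41 (adjusted p = 0.00335). Parp1 (-0.33) and Ctcf (-0.23) had -0.02 and -0.11 with the letter as a block and did not pass there (adjusted p = 0.921 and 0.557).

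**Figure D5:**
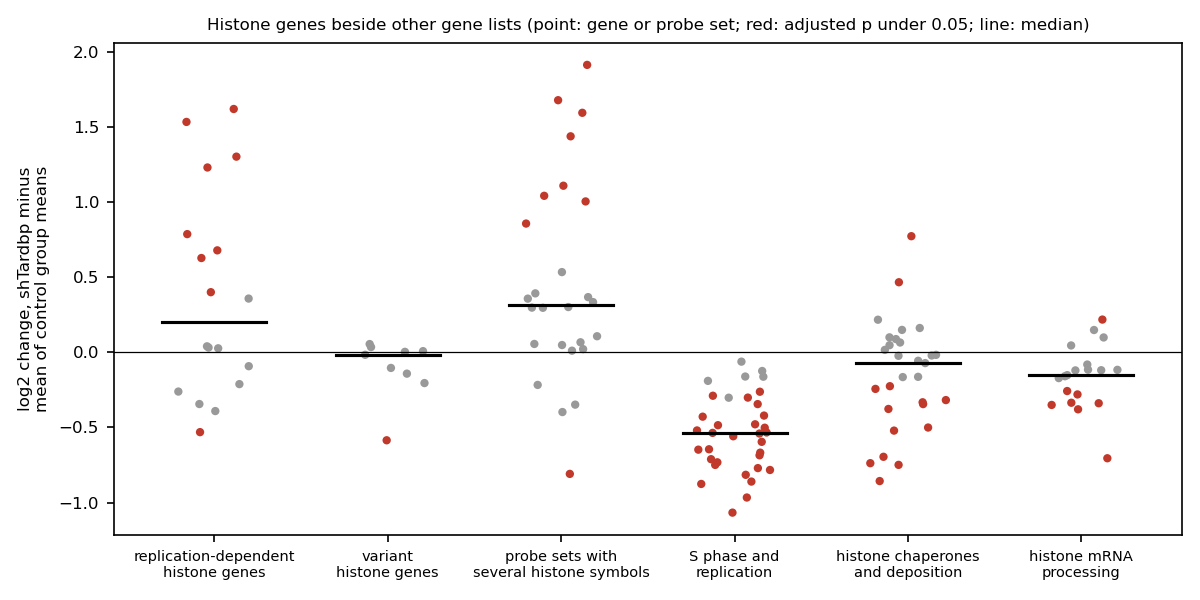
Log2 change, shTardbp minus the average of shGFP and shLuciferase, of each replication-dependent and variant histone gene, of each probe set shared by several histone genes, and of each gene in the lists of S phase and replication, chaperones and deposition, and histone mRNA transcription and processing (points, genes or probe sets; bars, medians). The S phase list lies mostly below 0 (median -0.54), and the replication-dependent histone genes spread to both sides of 0 (-0.53 to 1.62).

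Markers of other cells were measured beside these counts, where 30.5% of all genes were called. Of 12 glial and Schwann cell markers 0 were lower and 1 higher in shTardbp, of 9 fibroblast markers 2 were lower and 2 higher, and of 10 muscle, epithelial and endothelial markers 0 were lower and 1 higher. Their summed levels (log2) were 11.67 to 11.76 in shTardbp and 11.48 to 11.76 in the controls for glia, 11.68 to 11.92 in shTardbp and 11.49 to 11.90 in the controls for fibroblasts, and 8.66 to 8.76 in shTardbp and 8.54 to 8.73 in the controls for the third list. Most of the fibroblast sum is Fbln1, with group means of 11.67 in shTardbp, 11.57 in shGFP and 11.33 in shLuciferase. Of the fibroblast markers Dcn fell by 1.61 (limma adjusted p = 2.77e-08) and Pdgfra by 0.92 (adjusted p = 1.3e-06). Pdgfrb rose by 0.41 (adjusted p = 0.000753) and Fbln1 by 0.22 (adjusted p = 0.0195). Slc1a3, Aif1, Csf1r and Itgam of the glial list lay below the 25th percentile on all arrays. Gfap, Mbp, Pmp22, Sox10 and S100b of that list lay above it on all arrays. Gfap was at only 4.635 to 4.862, close to that percentile (4.46 to 4.57). Mbp, Sox10 and S100b had group means of 5.07 to 5.33, below the median gene value of 6.41. Pmp22 had group means of 11.57 in shTardbp, 11.59 in shGFP and 11.47 in shLuciferase. The part of all these markers in the histone values was not tested.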

How the data were processed

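RNA of 11 NSC34 arrays was measured on an Affymetrix whole-transcript platform. The deposited table gives 194293 probe sets in log2 units. Partek and RMA made these values, per the submitters' processing notes, which state neither versions nor settings in the sources used here. Every sample column was used. Probe sets with 1 gene symbol in the platform annotation (179496) were averaged into 15803 gene values; 1328 had several symbols and 13469 none. All 27 histone symbols matched a current or older symbol in RefSeq (GRCm38.p6). No 2 arrays held identical values.

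limma 3.58.1 (lmFit, eBayes) in R 4.3.3 fitted a model of the 3 groups to every gene with no filter on level, and Benjamini-Hochberg adjustment ran over all genes (threshold 0.05). Contrasts set shTardbp against the average of both control means and against each control, and shGFP against shLuciferase. The same model was fitted to probe sets. Usage, the value of a probe set minus the mean of the others of its gene, was tested over 101753 probe sets in 7531 genes, above the 25th percentile of probe set level and the median gene level.

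Members, lists and tests were chosen with earlier results of these data known. Named were all variants, the largest rises, falls and control differences among replication-dependent genes, and up to 4 genes per list by adjusted p plus 8 fixed names. Other histone genes, Txnip, Sv2a and the probe sets in the text were named after their values were seen. Checked on data with known changes, the gene test for shTardbp against both controls over 15803 genes found 50 of 50 genes at each of 1 and -1, 43 of 50 at 0.5 and 44 of 50 at -0.5, with 6 false calls among 15603. The usage test found 158 of 200 probe sets, with 2 false calls among 97736. The number of arrays limits precision.

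Alternatives were the median of probe sets, filters on gene and probe set level, quantile normalization, centring, array weights, blocks for the array letter and for the replicate number, and leaving out each array. The brightest probe set per gene and usage with at least 2 probe sets were added after the data were seen.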

Additional observations from a re-analysis of the deposited data

Results flagged for a closer look

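In 4 of the 54 sets of 4 arrays examined (27 genes in shTardbp and in shGFP), 1 array stood apart from the other 3 by Dixon's criterion, where chance gives about 1 in 20. In H1fx, shTardbp 2 was at 10.70, with the other shTardbp arrays at 10.44 to 10.47. In Hist2h4, an H4 gene, shGFP 2 was at 9.87, with the other shGFP arrays at 8.42 to 8.62. In Hist1h2ba, the testis H2B form, shGFP 2 was at 5.95, with the others at 5.18 to 5.25. In H1fnt, the testis linker histone gene, shGFP 2 was at 5.31, with the others at 4.60 to 4.72. Of the 4 cases 3 were shGFP 2, and their cause was not tested. Without shGFP 2 the replication-dependent genes with a rise numbered 9, with Hist1h1d added, and those with a fall 2, with Hist1h1a added.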

How the results depend on the processing

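The 27 histone genes gave 10 calls, 8 replication-dependent rises and 1 variant fall included, and these counts stayed within 1.5 times under every alternative run, although not always for the same genes. With the array letter as a block, Hist1h1e, Hist2h2be and Hist2h3c2 lost their calls, so that 0 replication-dependent genes were lower, and the numbers of genes called fell to 2509 against both controls and 1933 against shGFP. With the brightest probe set of each gene, added after the data were seen, the count was 2713 against both controls (4825 with the mean of probe sets), 2325 against shGFP (4416), 2064 against shLuciferase (4120) and 520 between the controls (1752). The changes of Hist1h1c (-0.26, adjusted p = 0.29), Hist2h2bb (-0.17, adjusted p = 0.487), Hist3h2a (-0.24, adjusted p = 0.0493, limma), Hist3h2bb (-0.25) and H1foo (-0.45) turned negative, in genes whose probe sets differ as the report describes, and Hist1h1e did not pass (-0.16, adjusted p = 0.267). Tardbp did not pass there either (-0.17, adjusted p = 0.292). Hist1h2ac, Hist1h2bp, Hist2h3c2 and Hist3h2ba have a single probe set each, so the choice of the brightest could not move their values. Between the controls the count was also 962 with the median of probe sets and 2916 with array weights. With array weights 2 replication-dependent genes were lower, and leaving out an array gave 1 to 2. Of usage, 4 histone probe sets were called, 1 with the array letter as a block, 9 with at least 2 probe sets per gene (also chosen after seeing the data) and 2 to 5 leaving out an array. With the median of probe sets H1fnt had 0.12, H2afy3 -0.042 and Hist1h1t -0.043. Without dim probe sets Hist1h1t had -0.026 and Hist3h2bb -0.25, and quantile normalization gave H2afy3 -0.00030. Array weights gave H3f3a 0.043, Hist1h2ae -0.0060 and Slbp 0.14. The letter block gave H1fnt 0.11, H1foo -0.10, H2afy3 -0.065, Hist1h1t -0.14 and Chaf1a 0.037. Leaving out an array turned the sign of genes with changes near 0, with ranges of -0.082 to 0.067 (H1fnt), -0.0010 to 0.13 (H1foo), -0.00022 to 0.083 (H2afj), -0.026 to 0.037 (H2afy), -0.045 to 0.077 (H2afy3), -0.22 to 0.042 (H3f3a), -0.19 to 0.011 (Hist1h1b), -0.032 to 0.075 (Hist1h1t), -0.11 to 0.12 (Hist3h2bb) and -0.31 to 0.12 (Slbp). Hist1h1d passed under 6 of the other alternatives run on all arrays. The cause of these moves was not tested.

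The labels do not say what a replicate number marks. Deviations of the 8 same-numbered pairs correlated at -0.056 to 0.26, with 5 over 0.1, and the 32 other pairs at -0.29 to 0.29, with 8 over 0.1. Of 10 arrays 5 correlated best with their own number, a hint from the data and not the design. Since not every same-numbered pair was over 0.1, the numbers were not taken to pair the arrays. With the replicate block, 1000 genes were called between the controls, 2 histone probe sets were called for usage, Hist1h1d passed and H2afy had -9.2e-05. What limits all of this is 3 or 4 arrays a group of unknown origin, signals near the low end for Hist1h2ac, Hist1h2bp and Hist1h2ae, and near-identical gene copies.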

Other observations

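Neighbours of the histone clusters were read as the 4 measured genes on each side in the gene table, a rule chosen after the values were seen. Over all genes 13.5% rose and 17.0% fell. Beside the Hist2 cluster, whose genes Hist2h2bb, Hist2h2be and Hist2h3c2 rose, Sv2a, a synaptic vesicle protein gene, rose by 1.06 (limma adjusted p = 9.08e-08) and Mtmr11 by 0.95 (adjusted p = 2.54e-05). Txnip, which binds thioredoxin, had -1.0 (adjusted p = 0.00167) and differed by 2.30 between shGFP and shLuciferase (adjusted p = 4.57e-05), and the other 5 neighbours did not pass. Beside the Hist3 cluster, whose genes Hist3h2ba and Hist3h2a rose, none of the 8 neighbours rose. Of these 4 fell: 2810021J22Rik by 0.53, Zfp39 by 0.38, Guk1, the guanylate kinase gene, by 0.38 and Mrpl55, a mitochondrial ribosomal protein gene, by 0.34.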
